A study of Brassica oleracea var. italica with 48 samples.

Results

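These results describe the leaves of broccoli plants kept on medium with potassium, sampled on days 1, 3 and 6 of a starvation experiment in which they served as the controls. The species, Brassica oleracea, also gives cabbage and kale, and broccoli is its variety italica. The plants were wild type. They first grew on plates of MS, a solid nutrient medium, for 6 days. A hydroponic solution holding K2SO4 at 2 mM followed for 7 days, in a daily cycle of 16 h light and 8 h dark, and part of the plants then lost potassium. By the labels' day count, control leaves of days 1, 3 and 6 were thus taken 14, 16 and 19 days after sowing. The members are the 12 control leaf libraries, 4 for each day and lettered a to d, of 48 libraries in the series. The 12 leaf libraries of the starved plants, taken on the same days from a medium without potassium, and the 12 control root libraries are used below as further sets of libraries. The labels do not give the hour of harvest, the leaf taken or the number of plants in a library, so a p-value here reflects no more than the spread among libraries, which may be technical. Plant age, day in hydroponic culture and day of harvest cannot be told apart.

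A young leaf first imports sugar and grows by cell division and cell expansion, then builds up its chloroplasts and exports sugar, and late in life takes its proteins apart and returns their nitrogen to the plant. Messages for photosynthetic proteins commonly make up a large part of leaf RNA, and many leaf genes also follow the daily clock.

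The authors deposited expression as TPM, reads per length scaled to a fixed total in each library, so a value depends on all other features in the same library. Of 60586 features in the table, 59225 have IDs that begin with Bo, and 23908 of these reached 1 TPM or more in at least 4 of the 12 libraries and were tested. The threshold was passed in exactly 4 libraries by 383 Bo features (median of their mean 0.882 TPM) and missed with 3 libraries by 476 (0.786 TPM). Further Bo features numbering 19148 were at 0 in all 12 libraries. The gene table used here held 0 of these IDs. Features are therefore given by ID, without gene names, and marker genes of leaf cell types were not analysed here. On log2(TPM + 1), a control leaf library had a Pearson r of 0.912 to 0.991 with the other control leaf libraries and of 0.408 to 0.544 with control root libraries, computed over the 23908 features, which do not vary independently.

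Library b of day 1 and library a of day 3 stood apart from the other 10. In limma's estimate of library quality (array weight, which is higher for a library closer to its group) they had 0.150 and 0.166, and the other 10 had 0.702 to 2.80. The first principal component, with 45.0% of the variance, had scores of 83.4 in library b of day 1 and 67.5 in library a of day 3, against -46.2 to 5.15 in the others. In these 2 libraries features of short coding length stood above their mean (Spearman rho of deviation and length -0.570 and -0.596, against -0.183 to 0.387 in the others). The second component, with 26.4% of the variance, had scores of -41.4 to -35.4 in the other 3 libraries of day 1, of -24.3 to 5.26 in the other 3 of day 3 and of 10.5 to 47.9 in the 4 of day 6. Without the 2 libraries the first component held 49.6% of the variance and set the 10 libraries in order of day without overlap, from -41.3 to -30.7 on day 1, from -17.9 to 2.27 on day 3 and from 10.17 to 62.1 on day 6. The 4 libraries of day 6 thus spanned more than those of the earlier days. The median SD of a feature within a day was 0.15 log2 units on day 1 and 0.14 on day 3 without the 2 libraries, 0.29 and 0.27 with them, and 0.20 on day 6. Whole reads behind the TPM values numbered 18636672 to 20160248 per library. The results below are given with all 12 libraries and, for counts of calls, also without these 2.

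**Figure D1:**
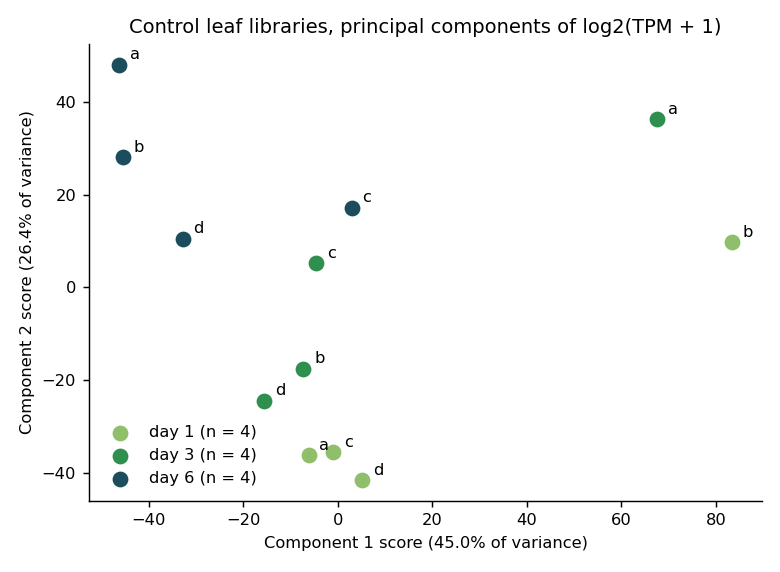
Scores of the 12 control leaf libraries (points, lettered by replicate and coloured by day) on the first and second principal components of log2(TPM + 1). Library b of day 1 and library a of day 3 lie far to the right at 83.4 and 67.5, and the second component places the other libraries from day 1 at the bottom (-41.4 to -35.4) to day 6 at the top (10.5 to 47.9).

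Day 3 was first compared with day 1. In control leaves 82 features rose and 23 fell between these days (0.439% of the 23908 tested; limma with Benjamini-Hochberg adjusted p under 0.05), with a median absolute log2 change of 1.01 among the 105. A change in bulk leaf RNA does not separate fewer cells of a type from less RNA per cell. Together the 82 rises held 13335 to 18684 TPM on day 3 and 7216 to 8972 TPM on day 1, and the 23 falls held 1559 to 1872 TPM on day 3 and 2595 to 3429 TPM on day 1. As the same libraries were used for choosing the features, the choice sets the direction of these sums.

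Bo7g056280, with a coding length of 219 bases, had 54.7, 30.6, 45.8 and 18.9 TPM in libraries a to d of day 3 and 10.22, 17.9, 7.54 and 6.48 TPM in those of day 1. All 4 libraries of day 3 lay above all 4 of day 1, by a small margin between library d of day 3 and library b of day 1, and the 4 of day 6 were higher still, at 58.9 to 92.8 TPM. Its log2 change from day 1 to day 3 was 1.09 in starved leaves (limma, SE 0.22, adjusted p = 0.0425) and 1.73 in control leaves (limma, SE 0.33, adjusted p = 0.0343). Bo6g026520 had 3.92, 4.85, 10.13 and 3.35 TPM on day 3, against 0.850, 1.11, 0.755 and 0.693 TPM on day 1. The lowest library of day 3 was above the highest of day 1 by a wide margin, and on day 6 the range of 2.35 to 8.60 TPM was much the same as on day 3. Its change was 1.40 in starved leaves (limma, SE 0.35, adjusted p = 0.0881) and 1.73 in control leaves (limma, SE 0.32, adjusted p = 0.0313). In control roots this feature was listed at 0 in all 12 libraries, while Bo7g056280 averaged 0.376 to 1.19 TPM there over the 3 days.

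Among the falls, Bo9g026330 had 4.16, 3.91, 3.19 and 4.82 TPM in libraries a to d of day 3 and 16.9, 18.5, 8.89 and 15.7 TPM in those of day 1. The libraries of day 3 lay close together and below every one of day 1. It changed by -0.65 in starved leaves (limma, SE 0.40, adjusted p = 0.518) and fell by 1.64 in control leaves (limma, SE 0.25, adjusted p = 0.0132). Bo3g010920 had 16.9, 26.9, 14.6 and 32.4 TPM on day 3, against 74.5, 52.1, 43.0 and 67.6 TPM on day 1. Its groups did not overlap either, and with 6.09 to 10.39 TPM on day 6 it continued downward. The log2 change to day 3 was -0.78 in starved leaves (limma, SE 0.27, adjusted p = 0.235) and -1.39 in control leaves (limma, SE 0.26, adjusted p = 0.0323). In control roots Bo3g010920 stood at 46.8 ± 7.14, 47.4 ± 5.95 and 32.2 ± 2.34 TPM on days 1, 3 and 6 (SD, n = 4 each), so that leaf and root levels were of a like size on day 1 and several times apart on day 6.

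The starved leaves give the same days in 12 libraries that had no part in choosing these features. There 82 of the 82 rises were higher on day 3 than on day 1, against 74.5% of all features tested, and 23 of the 23 falls were lower, against 25.5%. The median log2 change of the 82 was 0.85 in starved leaves, where all tested features had a median of 0.17, and 0.99 in control leaves, where all tested had 0.01. For the 23 falls the medians were -0.77 in starved and -1.08 in control leaves. A test of the difference between these changes of starved and control leaves called 0 of the 23908 features (limma, adjusted p under 0.05). For each of the 4 features named above it gave an adjusted p of 0.928 (limma). Taken on its own, the starved set called 220 features (0.920%), among them 30 of the 82 rises and 5 of the 23 falls. That count of 220 was 55 and 21 without libraries a and b of day 1 of the starved leaves, 37, 29 and 78 without b, c and d of day 3, 119 and 108 without a and b of day 6, and 334 without a of day 3. From day 3 to day 6 the 82 features had a median change of 0.01 in starved leaves, with 41 higher and 41 lower. Among those that were higher, Bo7g056280 averaged 90.0 TPM on day 6 and 35.4 TPM on day 3. Control and starved plants were harvested on the same days, and conditions of a day that both shared were not tested. In control roots 56 of the 82 were measured at the same threshold, and their median change from day 1 to day 3 was 0.24, against 0.09 for all features tested there.

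The rises of day 3 had a higher median level than all tested features. Their median level was 23.4 TPM over the 12 libraries, against 6.63 TPM for all tested, and 26 of 82 (31.7%) had a mean under 1 TPM in control roots, against 9.22% of all tested. For the 23 falls the median level was 12.3 TPM and the share under 1 TPM in roots 8.70%. Calls made up 0.124% of features under 2 TPM and 1.22% of those at 100 TPM or more. The count of 105 depended on single libraries and was 5 without library d of day 1, 7 without c of day 3, 36 without b of day 3, 53 without a of day 3 and 54 without a of day 1, and 125 (102 higher, 23 lower) without the 2 libraries that stood apart. Rescaling the libraries by medians of ratios gave 105 rises and 58 falls, removing each library's trend with coding length gave 451 and 299, and the adjusted p of the 4 named features ranged up to 0.137, 0.115, 0.0741 and 0.122 over the settings tried, each losing its call without library d of day 1 and without library c of day 3.

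**Figure D2:**
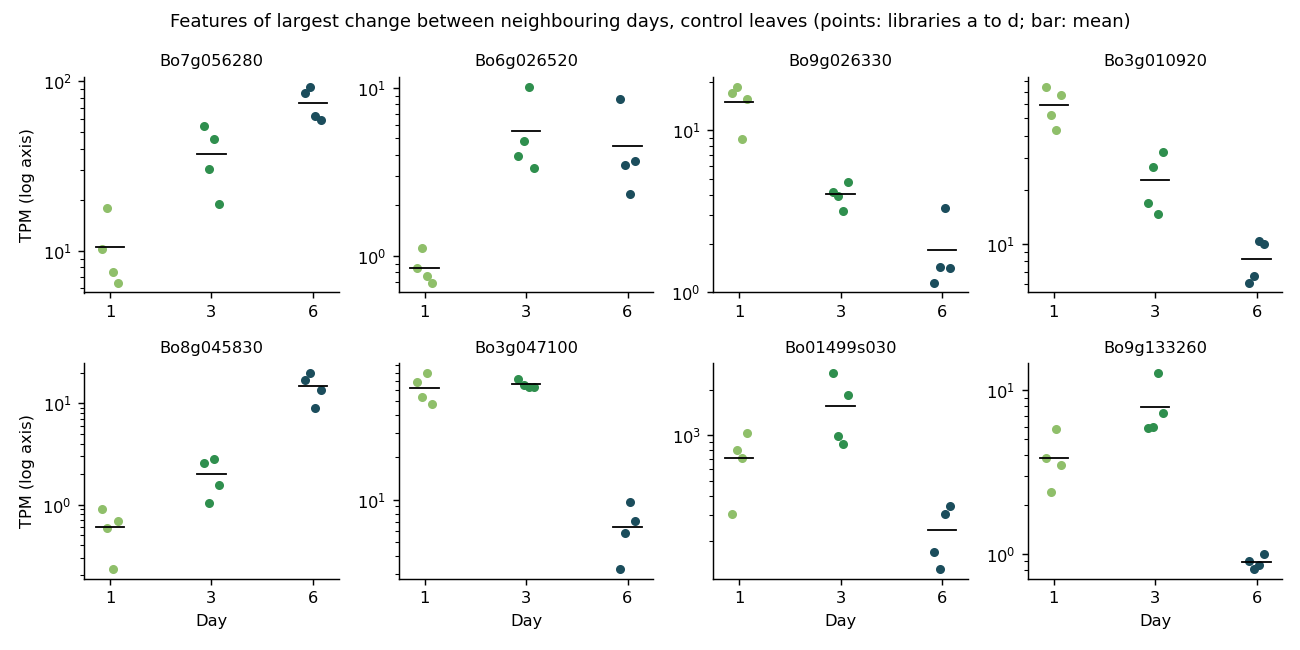
TPM (log axis) in libraries a to d (points) and their mean (bar) on days 1, 3 and 6 in control leaves, for features of largest change between neighbouring days and for Bo9g133260. Bo9g133260 was named for the departure of its day 3 from a straight line over days, and Bo8g045810 is not shown. In the top row Bo7g056280 and Bo6g026520 were higher and Bo9g026330 and Bo3g010920 lower on day 3 than on day 1; in the bottom row Bo8g045830 was higher and Bo3g047100 and Bo01499s030 lower on day 6 than on day 3, and Bo9g133260 was highest on day 3.

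Between day 3 and day 6 more features were called, and more of the calls were falls. Day 6 differed from day 3 for 739 features (3.09% of 23908), of which 260 rose and 479 fell (limma, adjusted p under 0.05), with a median absolute log2 change of 0.91. At an unadjusted p under 0.05 (limma) 2179 were higher and 1925 lower, 17.2% of all tested. This step is longer than that from day 1 to day 3. It includes library a of day 3 but not library b of day 1, while the earlier comparison includes both. This comparison shares its day 3 libraries with the one above, so the calls are given side by side and their overlap is not. Changes reached 1 log2 unit in 80 rises and 201 falls, and 2 log2 units in 3 rises and 19 falls. The 479 falls held 16543 to 22414 TPM in a library of day 6 and 37455 to 60030 TPM in a library of day 3. The 260 rises held 19058 to 25051 TPM on day 6 and 12867 to 14720 TPM on day 3. Here too the choice of features on the same libraries sets the direction of these sums. In starved leaves, which had no part in the choice, the falls held 22140 to 34780 TPM on day 6 and 29893 to 45482 TPM on day 3, with overlap. The rises held 15484 to 18564 TPM and 12311 to 14002 TPM there, without overlap.

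The 2 largest rises have neighbouring ID numbers. Bo8g045830 had 16.9, 19.8, 8.97 and 13.4 TPM in libraries a to d of day 6 and 2.57, 1.04, 2.84 and 1.55 TPM in those of day 3. Every library of day 6 was above every library of day 3, and those of day 1 were lower again, at 0.231 to 0.907 TPM. Its log2 change from day 3 to day 6 was 0.87 in starved leaves (limma, SE 0.24, adjusted p = 0.0709) and 2.39 in control leaves (limma, SE 0.25, adjusted p = 0.00169). Bo8g045810 had 8.08, 10.04, 2.35 and 5.64 TPM on day 6, against 0.329, 0.294, 0.297 and 0.686 TPM on day 3. Its values of day 3 rest on 4 to 9 reads a library and those of day 6 on 33 to 132. On day 1 it had 0 to 0.515 TPM, so it passed the filter of 1 TPM only through the libraries of day 6. Its test in control leaves is thus not independent of that filter. It rose by 0.88 in starved leaves (limma, SE 0.22, adjusted p = 0.0471) and by 2.30 in control leaves (limma, SE 0.29, adjusted p = 0.00208), on a scale that understates the change of so low a feature. In control roots Bo8g045810 was listed at 0 in all 12 libraries and Bo8g045830 averaged at most 0.0321 TPM on any day. The difference between the changes of starved and control leaves did not pass for Bo8g045830 or Bo8g045810 (limma, adjusted p = 0.235 and 0.316). Whether these features are copies that share reads was not tested.

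The largest fall of the comparison was that of Bo3g047100, which had 3.23, 5.78, 9.64 and 7.11 TPM in libraries a to d of day 6 and 72.5, 65.9, 63.3 and 63.8 TPM in those of day 3. Day 1 resembled day 3, with 47.7 to 79.3 TPM, so the drop lay between day 3 and day 6. It fell by 1.55 in starved leaves (limma, SE 0.26, adjusted p = 0.0136) and by 3.25 in control leaves (limma, SE 0.24, adjusted p = 6.08e-05). Starved leaves had 15.1 to 41.9 TPM on day 6, above the 3.23 to 9.64 TPM of the controls. The difference between the changes of starved and control leaves was 1.71 and did not pass (limma, adjusted p = 0.199). Control roots held 35.0 ± 3.46 TPM on day 6 and 42.8 ± 4.11 TPM on day 3 (SD, n = 4 each).

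Bo01499s030, one of the abundant features of the leaf, had 170, 132, 305 and 342 TPM on day 6, against 2564, 982, 870.2 and 1831 TPM on day 3. The groups were far apart, but the 4 libraries of day 3 differed widely among themselves, as did those of day 1, at 303 to 1031 TPM. Its change was 0.14 in starved leaves (limma, SE 0.57, adjusted p = 0.959), where the libraries of day 6 ranged from 233 to 1343 TPM and those of day 3 from 315 to 1459 TPM, and in control leaves it fell by 2.68 (limma, SE 0.42, adjusted p = 0.00716). The difference of the changes, 2.82, did not pass (limma, adjusted p = 0.333). In control roots it averaged 0.371 to 0.732 TPM over the 3 days. All 4 features named for this comparison passed under each of the 22 other settings. These settings reuse libraries by which the features were chosen. Apart from no filter, they also keep the filter that Bo8g045810 passed only through day 6.

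In the starved leaves 239 of the 260 rises (91.9%) were higher on day 6 than on day 3, against 42.9% of all tested, and 447 of the 479 falls (93.3%) were lower, against 57.1%. The medians of the rises were 0.38 in starved and 0.85 in control leaves, and those of the falls -0.60 in starved and -0.93 in control leaves. All tested features had medians of -0.05 in starved and 0.09 in control leaves. A test of the difference between these changes of starved and control leaves called 4 of the 23908 features (limma, adjusted p under 0.05). The starved set by itself called 677 features (2.83%), which include 47 of the 260 rises and 160 of the 479 falls, with 1 of the 260 called in the opposite direction. The count of 677 was 44 without library b of day 3 of the starved leaves, 68 without a of day 6, 163 without d of day 6, 267 without d of day 3, 367 without b of day 1, 380 without a of day 3, 396 without c of day 6 and 1886 without d of day 1. On day 3 against day 1 in starved leaves, where 74.5% of all tested features were higher and their median was 0.17, 231 of the 260 rises were higher with a median of 0.34. Of the 479 falls, 234 were higher and 245 lower over those days, with a median of -0.00, below that of all tested. In control roots 283 of 389 of the falls were lower on day 6 than on day 3 (72.8%), against 69.3% of all features tested there. Medians in roots were -0.22 for the falls and 0.11 for the rises, against -0.15 for all. Of the 389 falls, 56 were called lower and 9 higher in roots, against 1059 and 295 of all 21907 tested there.

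Features low in roots were more frequent among these calls than among all tested. Under 1 TPM in control roots were 68 of the 260 rises (26.2%) and 95 of the 479 falls (19.8%), against 9.22% of all tested. Of the 260 rises 55 (21.2%) had a mean under 1 TPM in control leaves of day 1, against 4.73% of all tested, which follows in part from the selection. Coding length had a median of 690 bases among the falls and 922.5 bases among the rises, against 1059 bases for all tested, and without the 2 libraries that stood apart these medians were 981 bases for falls and 846 bases for rises. The short length of the falls was thus not seen without the 2 libraries in which short features stood high. Without them 1388 features were called, 419 higher and 969 lower, which include 249 of the 260 rises and 469 of the 479 falls. The count of 739 became 158 without library b of day 6, 210 without a of day 6, 249 without b of day 3, 264 without d of day 3 and 391 without c of day 3.

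**Figure D3:**
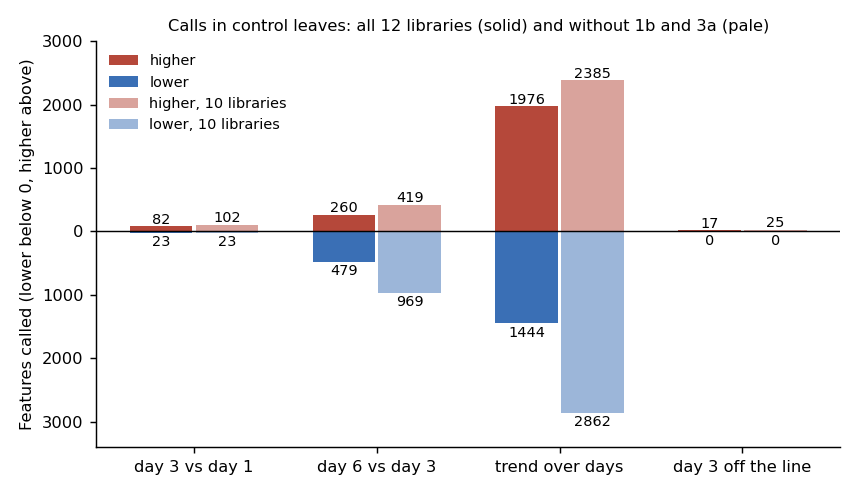
Number of features called in control leaves (limma, adjusted p under 0.05), higher above the zero line and lower below it, for the 4 comparisons, with all 12 libraries (solid) and without library b of day 1 and library a of day 3 (pale). The trend over days has the most calls in both fits, 1976 higher and 1444 lower with 12 libraries and 2385 and 2862 with 10.

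A straight line over days 1, 3 and 6 was then fitted to each feature, which uses the 12 libraries together. The slope passed for 3420 of 23908 features, of which 1976 (8.27% of all tested) rose and 1444 (6.04%) fell with time (limma, adjusted p under 0.05). Over the 5 days from day 1 to day 6 the fitted change was at least 1 log2 unit for 545 rises and 448 falls, at least 2 for 41 and 42, and at least 3 for 2 and 6. The libraries of day 6 lay all above those of day 1 for 1738 of the rises and all below them for 1295 of the falls. Among all 23908 tested this held for 2794 and 1886 features. For 158 rises (8.00%) and 117 falls (8.10%) the 3 days followed each other without any overlap between neighbouring days, against 0.661% and 0.489% of all tested. The calls were made on these same libraries, so higher shares among them follow in part from the selection.

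Bo1g020270 had the smallest p among the rises whose days did not overlap. Its libraries a to d had 41.5, 39.1, 36.1 and 41.7 TPM on day 1, 62.4, 55.4, 78.8 and 74.5 TPM on day 3, then 188, 186, 122 and 165 TPM on day 6. Each day stood clear of the one before, and the spread within day 1 was small. The fitted slope was 0.13 log2 units per day in starved leaves (limma, SE 0.03, adjusted p = 0.00919) and 0.40 in control leaves (limma, SE 0.03, adjusted p = 7.22e-06). Starved leaves had 36.1 to 39.6 TPM on day 1, 55.4 to 59.9 TPM on day 3 and 53.4 to 74.0 TPM on day 6, so the ranges overlapped on days 1 and 3 and lay far apart on day 6. The slope of starved minus that of control leaves was -0.28 (limma, adjusted p = 0.00254), in a test that uses the control libraries by which the feature was chosen. Control roots averaged 0.429 to 0.652 TPM. The other named rise was Bo8g045830, described above, with slopes of 0.28 in starved leaves (limma, SE 0.05, adjusted p = 0.00127) and 0.66 in control leaves (limma, SE 0.06, adjusted p = 2.11e-05) and a difference of -0.39 (limma, adjusted p = 0.0229).

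Bo8g064850 and Bo9g006380 had the smallest p among the falls whose days did not overlap. Bo8g064850 had 50.7, 56.1, 46.4 and 66.5 TPM on day 1, 22.9, 22.5, 27.0 and 28.9 TPM on day 3, then 8.16, 13.2, 10.41 and 9.90 TPM on day 6. Its level was lower by a like factor at each step. The slope was -0.31 in starved leaves (limma, SE 0.10, adjusted p = 0.0433), which had 6.72 to 14.5 TPM on day 3 and 7.97 to 16.4 TPM on day 6, and -0.46 in control leaves (limma, SE 0.03, adjusted p = 7.22e-06). Control roots held 107 to 143 TPM on average, with no such order of days. Bo9g006380 had 43.6, 50.6, 39.99 and 54.0 TPM on day 1, 23.99, 28.0, 22.2 and 30.404 TPM on day 3, then 10.35, 9.06, 13.2 and 10.7 TPM on day 6. Here too no library of a later day reached the range of an earlier one. Its slope was -0.46 in starved leaves (limma, SE 0.05, adjusted p = 9.30e-05) and -0.40 in control leaves (limma, SE 0.03, adjusted p = 7.22e-06), and in control roots it held 27.3 to 31.2 TPM on average. The 4 slopes passed under each of the 21 other settings.

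**Figure D4:**
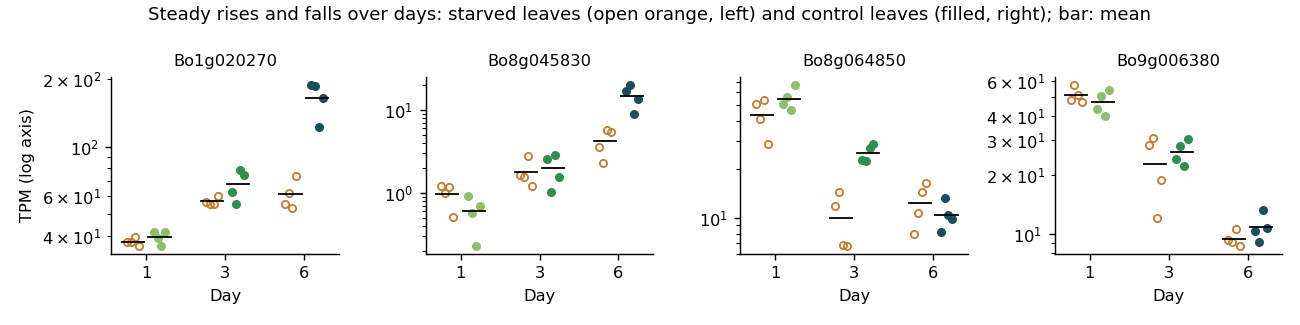
TPM (log axis) on days 1, 3 and 6 of the 4 features named for the trend, in starved leaves (open orange points, left) and control leaves (filled points, right), with means as bars. Bo1g020270 and Bo8g045830 ended higher on day 6 in control leaves than in starved leaves, whereas the ranges of Bo8g064850 and Bo9g006380 on day 6 overlapped between the sets.

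The TPM values of the features called for the trend were summed in each library. By number the 1976 rises were 8.27% and the 1444 falls 6.04% of all tested. The 1976 rises together held 53874 to 62268 TPM in the libraries of day 1, 67746 to 78840 TPM on day 3 and 84568 to 117720 TPM on day 6. The 1444 falls held 101089 to 113790 TPM on day 1, 84996 to 88880 TPM on day 3 and 55042 to 76815 TPM on day 6. Neither sum overlapped between days. Here too the features were chosen on the libraries summed. In the starved leaves, which had no part in the choice, the rises held 51014 to 64152, 67379 to 79527 and 84481 to 103306 TPM on days 1, 3 and 6, and the falls held 99518 to 106737, 80194 to 95722 and 64869 to 74644 TPM. The order of the days was the same there, again without overlap. On day 6 library c of the controls had moved least, with 84568 TPM in the rises and 76815 TPM in the falls, and library a most, with 117720 and 55042 TPM.

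Few features carried much of this shift, as few also carry much of the TPM of a library. The 100 features of highest mean level took 37.1 to 46.6% of the TPM of a control leaf library. Whether the shift was more concentrated than the levels was not tested. Of the summed loss of mean TPM between day 1 and day 6 over the 1444 falls, the 10 largest made up 23.8% and the 100 largest 65.1%, and of the summed gain over the 1976 rises 16.4% and 53.5%. The largest loss was that of Bo6g116050, with 4005, 6144, 4989 and 5671 TPM in libraries a to d of day 1, 4846, 4406, 4045 and 4136 TPM on day 3, then 1975, 2350.2, 3399 and 2867 TPM on day 6. Days 1 and 3 overlapped and day 6 was below both. The slope was -0.12 in starved leaves (limma, SE 0.03, adjusted p = 0.0112) and -0.20 in control leaves (limma, SE 0.03, adjusted p = 0.00131). Bo9g022280 followed, at 2564 to 3284 TPM on day 1, 1843 to 2129 TPM on day 3 and 621 to 1916 TPM on day 6, where libraries a and b had 621 and 814 TPM and libraries c and d 1916 and 1506 TPM. Its slope was -0.23 in starved leaves (limma, SE 0.02, adjusted p = 0.000107) and -0.28 in control leaves (limma, SE 0.05, adjusted p = 0.00249). In control roots both averaged under 5 TPM on each day.

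The largest gain in TPM was that of Bo1g039700. It had 533, 360.1, 589 and 282 TPM on day 1, 1230.3, 1221, 1295 and 893 TPM on day 3, then 1897, 1818, 1611 and 1310.4 TPM on day 6. The days did not overlap, and more of the gain fell between day 1 and day 3 than a straight line in TPM would place there. The slope was 0.21 in starved leaves (limma, SE 0.05, adjusted p = 0.0139) and 0.37 in control leaves (limma, SE 0.06, adjusted p = 0.000797). Bo5g155090 had 3791 to 4088 TPM on day 1, 3737 to 4288 TPM on day 3 and 4635 to 5464 TPM on day 6, so its gain lay after day 3. The slope was 0.05 in starved leaves (limma, SE 0.02, adjusted p = 0.0937) and 0.08 in control leaves (limma, SE 0.02, adjusted p = 0.0103), a small change on a large level. The difference of these slopes did not pass (limma, adjusted p = 0.9996). Bo5g155090 lost its call with no filter (limma, adjusted p = 0.0567), with the coding length trend removed (limma, adjusted p = 0.0654) and after rescaling by medians of ratios (limma, adjusted p = 0.285).

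The 2 features of highest mean level had slopes that did not pass. Bo4g137200 held 50739 to 70208 TPM on day 1, 48708 to 64762 TPM on day 3 and 47861 to 58775 TPM on day 6. Its highest values were those of library b of day 1 and library a of day 3, and the slope was -0.03 (limma, SE 0.02, adjusted p = 0.509). Bo3g146480 held 20094 to 22627, 19681 to 22049 and 17334 to 21430 TPM on the 3 days (limma, slope -0.02, SE 0.02, adjusted p = 0.412). The 10 most abundant features took 14.6 to 19.4% of the TPM of a library, with 19.4% in library b of day 1, 19.3% in library a of day 3 and at most 16.8% elsewhere. Among features with a mean of at least 100 TPM, Bo7g067800 and Bo3g039670 varied least. The highest of the 12 libraries was 1.15 times the lowest for Bo7g067800, at 103 to 119 TPM, and 1.16 times for Bo3g039670, at 544 to 628 TPM. The number of Bo features at 1 TPM or more was 23123 ± 422 on day 6 and 22701 ± 1053 on day 3 (SD, n = 4 each; exact permutation test, two-sided, p = 0.543), and 22641 ± 996 on day 1 (against day 3, p = 1, exact), where the smallest p that 4 against 4 libraries can give is 0.0286.

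The starved leaves moved along the same lines. Of the 1976 rises 1909 (96.6%) had a positive slope in starved leaves, against 62.2% of all tested, and of the 1444 falls 1392 (96.4%) had a negative one, against 37.8%. The starved set by itself called 3687 features (15.4%), among them 1020 of the rises and 863 of the falls in the same direction, and 5 and 3 in the opposite one. The count of 3687 was 2371 without library a of day 6 of the starved leaves, and 5114, with 2342 rises and 2772 falls, without d of day 1. Median slopes per day were 0.12 in starved and 0.16 in control leaves for the rises, and -0.13 in starved and -0.16 in control leaves for the falls. Features chosen for their slope in control libraries have slopes there whose size is raised by the choice. Across all 23908 features, which are not independent and share their days of harvest, the correlation of starved with control slopes was 0.700 by Pearson's r and 0.713 by Spearman's rho. A test of the difference of slopes between starved and control leaves over the 24 libraries, added after seeing the data, called 52 features (0.218%), 42 with the more positive slope in starved leaves and 10 with the more negative. Array weights gave 589 calls, 346 and 243, and a pseudocount of 0.1 TPM gave 34. The count of 52 was 96 without library c of day 6 of the starved leaves and 160 without library a of day 6 of the controls. It was 31, 17 and 24 without b of day 1, a of day 6 and d of day 6 of the starved leaves, and 30, 29, 22 and 25 without c of day 1, d of day 1, b of day 6 and d of day 6 of the controls.

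**Figure D5:**
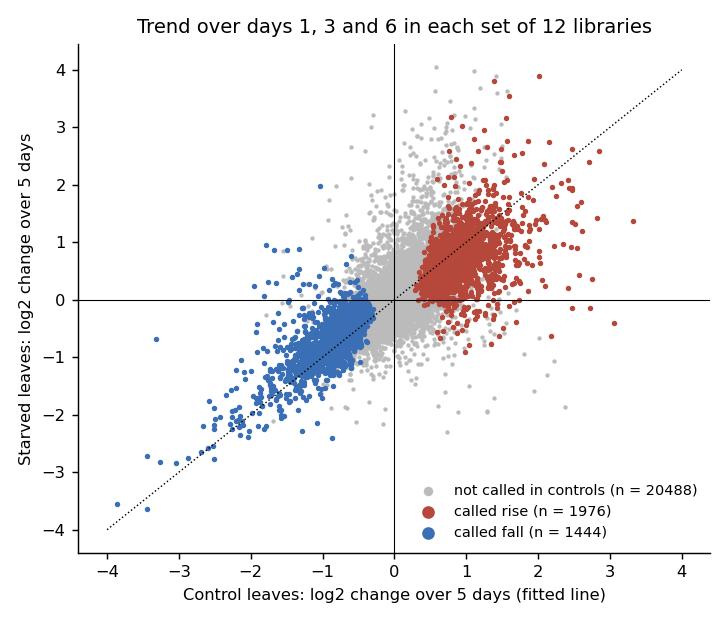
Fitted log2 change over the 5 days from day 1 to day 6 for each of the 23908 features in control leaves (horizontal) and starved leaves (vertical), with features called in control leaves in red (1976 rises) and blue (1444 falls) and the dotted line marking equal change. Nearly all red points lie above the horizontal zero line (1909 of 1976) and nearly all blue points below it (1392 of 1444).

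In control roots the slopes of both sets were small. Of the 1690 rises measured there, 51.8% had a positive slope, against 33.7% of all features tested in roots, and their median slope was 0.00 per day against -0.02. Of 1247 falls, 83.2% had a negative slope in roots, against 66.3% of all, with a median of -0.06 per day. Relative to all features, each set thus leaned in roots in its direction in leaves. Features under 1 TPM in control roots were 305 of the rises (15.4%) and 214 of the falls (14.8%), against 9.22% of all tested. Of the rises 287 (14.5%) had a mean under 1 TPM on day 1, where 1 of the falls and 4.73% of all tested did, which follows in part from the selection. By level, the trend was called for 15.0% of features under 2 TPM, 12.3% at 2 to 5 TPM, 12.5% at 5 to 20 TPM, 17.2% at 20 to 100 TPM and 24.1% at 100 TPM or more. In the last class the falls, at 176, were more numerous than the rises, at 141, while in each of the lower classes rises were more numerous. By the first digit of the ID, 1 to 9, the called share lay between 13.0% and 15.8%, and features whose ID has the form Bo, number, s and number made up 3.14% of the rises, 2.63% of the falls and 3.13% of all tested.

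Which direction had more calls for the trend changed with the setting. Rescaling the 12 libraries by medians of ratios gave 2157 rises and 2246 falls, and removing each library's trend with coding length gave 2923 and 3088. Leaving out library b of day 1 gave 1480 rises and 1529 falls, whereas leaving out library a of day 3 gave 2381 and 1720. Without both of these libraries 5247 features were called, 2385 higher and 2862 lower, which include 1869 of the 1976 rises and 1402 of the 1444 falls. With 12 libraries the falls had a median of 739.5 bases of coding length and the rises one of 1020 bases, while without the 2 libraries the falls had 1002 and the rises 960 bases. Leaving out library a or b of day 6 gave 1865 and 1944 calls.

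The medians of these features lay near a straight line between the end points. On the log2 scale the rises had gained a median of 0.30 by day 3 and 0.80 by day 6, and the falls had medians of -0.32 and -0.79. On a straight line through days 1 and 6, 40% of the change is reached on day 3, and the ratio of these medians was 38.1% for the rises and 40.1% for the falls, or 41.1% and 35.9% without the 2 libraries. In starved leaves the ratios for the same features were 60.5% for the rises and 31.4% for the falls. All tested features there had median changes of 0.17 from day 1 to day 3 and -0.05 from day 3 to day 6. In control leaves these medians were 0.01 and 0.09. The ratios do not take out such common shifts, and whether the sets differ in timing was not tested. The mean of day 3 lay between those of days 1 and 6 for 1902 of 1976 rises and 1308 of 1444 falls in control leaves. These shares are a description, as a slope that passes favours features whose day 3 lies on the line.

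The departure of day 3 from the straight line between day 1 and day 6 was tested directly. It passed for 17 features (0.0711% of 23908), all with day 3 above the line, and for 0 below it (limma, adjusted p under 0.05). An unadjusted p under 0.05 (limma) was found for 1070 above and 446 below, together 6.34% of all tested. That share is little above what such a threshold gives where no feature departs from the line. Rescaling by medians of ratios and the replicate block each called 0, no filter called 1, a pseudocount of 0.1 TPM called 4, and voom on the recovered reads called 25 above and 0 below. In starved leaves 16 of the 17 were also above the line, with a median of 0.60 there and of 1.00 in control leaves, against 73.9% of all tested features, and the starved set called 8 features of its own (0.0335%) and 0 of the 17. That count of 8 was 0 without b of day 1, b of day 3 or d of day 3 of the starved leaves, 1 without c of day 3, 4 or 5 without a of day 1 or a, c or d of day 6, 15 without d of day 1 and 42 without a of day 3.

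Bo9g133260 had 3.83, 2.39, 5.76 and 3.49 TPM in libraries a to d of day 1, 5.86, 5.99, 12.7 and 7.23 TPM on day 3, then 0.909, 0.808, 0.858 and 0.998 TPM on day 6. Day 3 was above all other libraries, by a narrow margin over library c of day 1, and day 6 was far below both earlier days. It lay above the line by 1.85 log2 units in starved leaves (limma, SE 0.39, adjusted p = 0.141) and by 1.39 in control leaves (limma, SE 0.21, adjusted p = 0.0403). Bo3g002170, with a coding length of 231 bases, had 48.4 to 73.9 TPM on day 1, 249, 143, 171 and 127 TPM on day 3, and 57.8 to 83.5 TPM on day 6. Its levels on days 1 and 6 thus overlapped and day 3 stood above both. Its departure was 0.51 in starved leaves (limma, SE 0.15, adjusted p = 0.389) and 1.34 in control leaves (limma, SE 0.17, adjusted p = 0.0403). The highest value was that of library a of day 3, in which short features stood high, and without that library the departure was 1.15. The difference between the departures of starved and control leaves did not pass for Bo9g133260 or Bo3g002170 (limma, adjusted p = 0.883 for each). Both lost their call with no filter, after rescaling and with the replicate block. Both also lost it without any of libraries a and d of day 1, a, b and c of day 3 and a and b of day 6, and Bo9g133260 also without d of day 3 and c and d of day 6 (limma, adjusted p up to 0.216 for each over all settings). The count of 17 was 0 without any one of a and d of day 1, a, b and c of day 3 and a and b of day 6, 1 without d of day 3, 3 without c of day 6, 8 without d of day 6, 11 without c of day 1 and 37 without b of day 1.

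Features with ENSRNA IDs, 1361 in the table, were outside the Bo features tested. They took 0.0154 to 0.0206% of the reads in the libraries of day 6 and 0.0324 to 0.0853% in those of day 3, without overlap (exact permutation test, two-sided, p = 0.0286, the smallest that 4 against 4 can give), and 0.0203 to 0.0569% on day 1 (day 3 against day 1, exact p = 0.543). Library a of day 3, the highest, is also 1 of the 2 that stood apart. The exact p-values were not adjusted for the number of such tests.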

How the data were processed

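RNA was sequenced from leaves and roots, and the authors deposited TPM per feature in 1 table of the series. Per the submitters' processing notes the tools were FastQC 0.11.9, cutadapt 4.1, STAR 2.7.10a and DESeq2, which was not used here, and the genome build is not given in the sources used here. Samples were grouped by the labels. Bo features that reached 1 TPM in 4 or more of the 12 control leaf libraries were fitted as log2(TPM + 1) with limma 3.58.1 in R 4.3.3 (empirical Bayes with a mean trend), all 3 days in the fit, with Benjamini-Hochberg adjustment over the 23908 features. A fold change on this scale understates the change of low features. Whole reads, and with them depth and coding length, were recovered from the TPM values. For each feature the smallest length was taken at which all its reads came out whole within 0.05 reads. Such a length was found for 100.0% of the 44911 features above 0 in 2 or more libraries. Features above 0 in 1 library only were set to 1 read. Of the recovered lengths of Bo features 99.83% were multiples of 3. Starved leaves and control roots were fitted the same way. The tests of starved minus control leaves, for slopes, day steps and departures, and the removal of length trends were added after seeing the data. The exact permutation tests were not among the planned tests either, and their p-values were not adjusted.

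Features were named by these rules: for each pair of neighbouring days the 2 largest rises and 2 largest falls among called features with a mean of at least 1 TPM and no overlap between days; for the trend the 2 rises and 2 falls of smallest p with no overlap between neighbouring days; for the departure the 2 largest with day 3 beyond the 8 other libraries; the 2 largest gains and losses in mean TPM among trend calls; the 2 most abundant features; and the 2 least variable with a mean of at least 100 TPM. The members and lists were chosen with earlier results of these data known. Of the feature IDs, 0 matched the 53125 genes of the gene table, so no gene lists or markers were used. Alternatives were a pseudocount of 0.1 TPM, no filter, rescaling by medians of ratios, array weights, voom on recovered reads, a replicate block, all 24 leaf libraries, a log2 change of at least 1, the 8 compared libraries alone, and leaving out libraries.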

Additional observations from a re-analysis of the deposited data

Results flagged for a closer look

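Of 90 groups of 4 libraries checked for a library far from the others (Dixon's ratio above its 95% critical value), 9 had one, where chance flags about 1 in 20. Library b of day 1 had a first component score of 83.4 and a second of 9.75. Library a of day 3 had a first component score of 67.5, 19.3% of its TPM in the 10 most abundant features and 44.8% in the 100 most abundant. Bo9g026330 had 3.33 TPM in library c of day 6, above the 1.15 to 1.44 TPM of the other 3. Bo8g045810 had 0.686 TPM in library d of day 3, above the others. Of the 2 least variable features, Bo7g067800 had 103 TPM in library a of day 6, and Bo3g039670 had 549.5 TPM in library b of day 1, both below the others of their day.

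The slope per day of starved minus control leaves was -0.28 log2 units for Bo1g020270 (limma, adjusted p = 0.00254) and -0.39 for Bo8g045830 (limma, adjusted p = 0.0229). Both were chosen for their rise in the control libraries that the test also uses. ENSRNA features, outside the Bo features tested, took up to 0.0853% of the reads on day 3, in library a.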

How the results depend on the processing

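For day 3 against day 1, with 105 calls, rescaling by medians of ratios gave 163, array weights 1907, the replicate block 30, all 24 leaf libraries 338, a log2 change of at least 1 gave 53, the 8 compared libraries alone 47, removing the length trend 750, and leaving out single libraries 5 to 127. For day 6 against day 3, with 739, array weights gave 3060, the replicate block 338, all 24 leaf libraries 1203, leaving out library b of day 1 and a of day 3 gave 1388, a log2 change of at least 1 gave 281, removing the length trend 2062, and leaving out single libraries 158 to 1081. For the trend, with 3420, array weights gave 6245, leaving out those 2 libraries 5247, a log2 change of at least 1 gave 993, removing the length trend 6011, the replicate block 2370, and leaving out single libraries 1865 to 4101. For the departure, with 17, no filter gave 1, a pseudocount of 0.1 TPM gave 4, rescaling 0, array weights 451 (388 above and 63 below the line), the replicate block 0, all 24 leaf libraries 82, a log2 change of at least 1 gave 8, removing the length trend 99, and leaving out single libraries 0 to 37. The cause was not tested. Same-lettered libraries deviated together in 5 of 12 pairs (correlation over 0.1), and 5 of 24 comparisons had the highest correlation with their own letter, which is not enough to treat the letters as pairs, although letter d was over 0.1 in 3 of its 3 pairs (0.143 to 0.409). Of 386 values of 18 called named results under these alternatives, 324 stayed past the threshold, 62 did not and 0 reversed. Features of few reads are limited by depth.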
